A study of Homo sapiens with 5 samples.

Results

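Chromosome 19 holds more genes for Cys2-His2 zinc finger (ZNF) proteins than any other human chromosome, and these genes were described here in COLO 320DM, a human colorectal adenocarcinoma line, after transfection with siRNA against USP17. Members were the protein-coding genes of chromosome 19 whose symbol is ZNF followed by digits alone, and 241 of the 60651 listed genes met that rule. The libraries with USP17 siRNA numbered 3, each under a different siRNA title (siIDT, sino4 and siSMPLT), and those with a control siRNA numbered 2 (siL2 and siNT). The USP17 libraries were recognised by elimination, since the series names its non-silencing controls and not its USP17 siRNAs. Both groups are the same cell line, with the same poly(A) selection. Each siRNA was sequenced once and the labels do not say whether cultures were separate, so every p-value below reflects library-to-library spread. That spread may be purely technical or may include differences between siRNAs, and these cannot be told apart.

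A Cys2-His2 zinc finger is a small fold held by a zinc ion, and tandem arrays of such fingers read DNA base by base. Many ZNF proteins also carry a KRAB domain, which binds the corepressor TRIM28 (KAP1), and TRIM28 in turn gathers the histone methyltransferase SETDB1 and HP1 proteins to form silent chromatin, often over transposable elements. Their genes arose by repeated tandem duplication and stand in clusters along chromosome 19, which is why they are grouped here by cytoband.

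The sequences below are a repeated coding stretch and promoters, and of the promoters only those of ZNF701 and ZNF611 resemble each other. The first is the 24-base stretch of coding sequence that encodes the conserved linker between neighbouring fingers. It was found unchanged in 41 of the 241 members, in 26 of the 235 ZNF genes of other chromosomes and in 6 of 19138 other coding genes, and ZNF91, ZNF737, ZNF83, ZNF611, ZNF765 and ZNF415 are among the members that hold it. The others are promoters from RefSeq on GRCh38.p14, from 250 bases before to 50 bases after the annotated start, of the member with the largest called rise (ZNF701), a neighbour in its cluster (ZNF611), a gene of another cluster (ZNF91) and the member that was lower (ZNF581). ZNF701 is given for chr19:52570037-52570336 on the plus strand, ZNF611 for chr19:52734995-52735294 on the minus strand, ZNF91 for chr19:23395422-23395721 on the minus strand and ZNF581 for chr19:55643399-55643698 on the plus strand. Each reads 5′ to 3′ along the gene, and capitals mark the core of the ETS family motif, CCGGAAG, on either strand. The RefSeq start can differ from the start in the GENCODE annotation, which gives the gene coordinates below. The ZNF701 and ZNF581 promoters lie inside their GENCODE gene spans, which begin upstream at 52555457 and 55635459. Those of ZNF611 and ZNF91 cross the upstream end of the span. How often the starts differ among the other members was not tested.
Linker stretch: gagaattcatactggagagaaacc
ZNF701: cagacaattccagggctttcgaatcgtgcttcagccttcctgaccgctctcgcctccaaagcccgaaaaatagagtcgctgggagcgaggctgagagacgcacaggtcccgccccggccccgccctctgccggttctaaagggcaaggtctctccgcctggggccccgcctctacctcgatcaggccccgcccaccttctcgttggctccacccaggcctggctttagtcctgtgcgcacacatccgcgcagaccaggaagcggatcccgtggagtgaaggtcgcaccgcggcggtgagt
ZNF611: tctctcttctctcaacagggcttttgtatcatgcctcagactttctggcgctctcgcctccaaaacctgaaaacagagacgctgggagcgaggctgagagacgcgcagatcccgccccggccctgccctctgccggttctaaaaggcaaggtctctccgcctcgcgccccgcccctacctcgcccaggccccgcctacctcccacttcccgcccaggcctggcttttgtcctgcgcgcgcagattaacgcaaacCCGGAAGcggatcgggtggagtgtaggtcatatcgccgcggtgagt
ZNF91: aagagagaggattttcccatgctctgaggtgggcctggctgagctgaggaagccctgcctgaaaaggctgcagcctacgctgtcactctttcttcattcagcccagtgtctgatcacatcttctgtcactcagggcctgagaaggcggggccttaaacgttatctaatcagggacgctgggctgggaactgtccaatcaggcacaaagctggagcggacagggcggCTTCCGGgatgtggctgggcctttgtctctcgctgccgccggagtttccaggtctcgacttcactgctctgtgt
ZNF581: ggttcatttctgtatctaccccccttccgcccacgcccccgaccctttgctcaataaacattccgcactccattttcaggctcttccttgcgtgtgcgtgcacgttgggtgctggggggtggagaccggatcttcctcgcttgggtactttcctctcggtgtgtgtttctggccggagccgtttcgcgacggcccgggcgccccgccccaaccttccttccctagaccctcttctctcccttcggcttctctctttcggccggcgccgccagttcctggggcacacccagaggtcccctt

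Depth was even across the libraries, at 31704821 to 36276143 reads in genes, so that a gene without reads could still hold 3 of them, which is 0.0827 to 0.0946 CPM (counts scaled to library size). That limit covers counting error only. The targeted genes gave no check of the labels: the 26 protein-coding USP17L genes had 0 reads and 0 RSEM expected counts in all 5 libraries. Of the epithelial markers, CDX2 lay at 1467 to 1846 TPM (abundance scaled by transcript length and library size), KRT8 at 90.3 to 109 TPM and KRT18 at 70.55 to 90.1 TPM, while EPCAM reached 3.05 TPM and VIL1 0.08 TPM. CD3E was at 0 TPM and CHGA at 0 to 0.12 TPM, but the leukocyte gene PTPRC was at 15.5 to 19.99 TPM. Reads that fell on no gene made up 7.15%, 7.05% and 7.49% of reads in siIDT, sino4 and siSMPLT, against 6.58% and 6.37% in siL2 and siNT. The nuclear RNAs MALAT1 (410.2, 424 and 479 against 321 and 316 CPM) and NEAT1 (192, 208 and 233 against 132 and 137 CPM) were higher in the same libraries, and their part in the results below was not tested.

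Most members were expressed at low levels. By mean TPM, which allows for transcript length, 48 members lay at 10 TPM or more, 146 at 1 to 10 TPM and 47 under 1 TPM. ZNF146, whose protein consists almost wholly of zinc fingers, stood highest at 125 TPM. ZNF544 in 19q13.43 followed at 28.3 TPM, ZNF428 in 19q13.31 at 27.9 TPM, ZNF121 in 19p13.2 at 26.7 TPM and ZNF581 in 19q13.42 at 26.3 TPM. ZNF536, alone in 19q12, was listed at 0 TPM. A total of 207 members had enough reads to be tested, with a median level of 5.86 TPM. The other 34 had a median of 2.5 uniquely placed reads over all 5 libraries together and at most 47, and 4 of them had none. These low counts do not always mean low expression: RSEM assigned 367 reads to ZNF177 where the unique count was 0, and 558 to ZNF20 where it was 23 (1.83 and 2.03 TPM). Both genes overlap an annotated readthrough gene on the same strand.

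Taken as a family, chromosome 19 ZNF transcripts were higher with USP17 siRNA, by a small amount spread over many genes. Summed over all 241 members, they made up 3455, 3346 and 3317 CPM in siIDT, sino4 and siSMPLT, against 2924 and 3073 CPM in siL2 and siNT. Every USP17 library thus lay above both controls, with means of 3373 ± 72.8 CPM (SD, n = 3) and 2999 ± 105 CPM (SD, n = 2), a ratio of 1.12. On the TPM scale the sums were 1768, 1679.5 and 1679.6 TPM with USP17 siRNA and 1480.3 and 1558 TPM with control siRNA, a ratio of 1.13. In bulk RNA, fewer cells of a type and less RNA per cell cannot be told apart, so a sum describes the culture and not a cell.

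Among the 207 tested members, 172 (83.1%) had a log2 fold change above 0, and the median was 0.22, or 1.17-fold. The middle 50% of values ran from 0.08 to 0.35. Over all 16341 tested genes the median was 0.01 and 50.7% were above 0. The family was singled out with the differences between these groups already known, so its counts and medians describe these libraries and test nothing about the family. Single genes were compared by edgeR's quasi-likelihood test with Benjamini-Hochberg adjustment over all tested genes, and these p-values make no allowance for the choice of the family.

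By that test 19 members passed an adjusted p of 0.05, which is 9.18% of those tested, while 10.5% of all tested genes passed. The members called were 18 higher and 1 lower with USP17 siRNA, and among all tested genes 4.64% were called higher and 5.82% lower. Before adjustment, 69 members (33.3%) had a p under 0.05, against 28.9% of all tested genes, and 67 of them (32.4%) were higher, against 14.2% of all tested genes. In 114 members all 3 USP17 libraries lay above both controls in CPM, an arrangement found in 23.3% of all tested genes, and in 9 members (4.35%) all lay below both, compared with 22.6% of all tested genes. By fold alone, 8 members were at least 1.5-fold higher and 3 at least 1.5-fold lower, as were 6.31% and 5.12% of all tested genes.

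**Figure D1:**
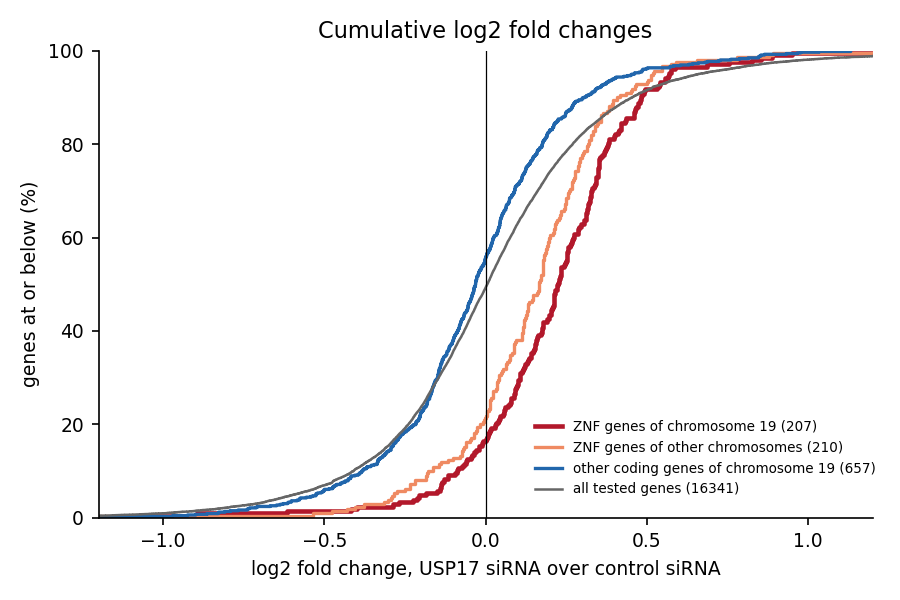
Cumulative log2 fold changes, USP17 siRNA over control siRNA: the x axis is the log2 fold change and the y axis the percentage of genes at or below it, for the 207 tested ZNF genes of chromosome 19, 210 ZNF genes of other chromosomes, 657 other coding genes of chromosome 19 and all 16341 tested genes. Both ZNF curves lie to the right, with medians of 0.22 and 0.17, and other coding genes of chromosome 19 have a median of -0.03.

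The same direction was seen in ZNF genes elsewhere in the genome. Of the 235 ZNF genes of other chromosomes 210 were tested, with a median log2 fold change of 0.17 and 78.6% above 0. They had 23 members called higher and 4 lower (12.9% in all), and their summed CPM had a ratio of 1.07. The other protein-coding genes of chromosome 19 were set apart by symbol alone, so zinc finger genes under further symbols may remain among them. Of the 657 tested, 44.3% were above 0, and the median was of the other sign, at -0.03. Of these, 14 were called higher and 29 lower (6.54% in all, against 10.5% of all tested genes). The 13 tested chromosome 19 genes with other zinc finger symbols (such as ZFP, ZSCAN or ZNF with a letter) had a median of 0.21. By edgeR's test 4 were called higher and none lower (30.8%, against 10.5% of all tested genes). An unadjusted p under 0.05 was found in 6, and in 28.9% of all tested genes. These are descriptions, and the differences between the sets were not tested.

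The member median lay above each control in the library of each USP17 siRNA. The siIDT library had the largest median member difference, 0.28 in log2 CPM over siL2 and 0.25 over siNT. For sino4 the medians were 0.23 over siL2 and 0.18 over siNT, and for siSMPLT 0.20 and 0.15. Members above siL2 made up 83.6% in siIDT, 77.3% in sino4 and 76.8% in siSMPLT, against 50.5% to 51.1% of all tested genes. Over siNT the shares were 83.1%, 75.8% and 75.8%, against 50.4% to 50.8% of all tested genes. The siIDT library was the highest of the USP17 libraries in 116 members (56.0%), sino4 in 45 and siSMPLT in 46. The controls lay close together, with a median siNT minus siL2 difference of 0.03, and they were at least 1.5-fold apart in 10 members (4.83%), compared with 12.9% of all tested genes.

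**Figure D2:**
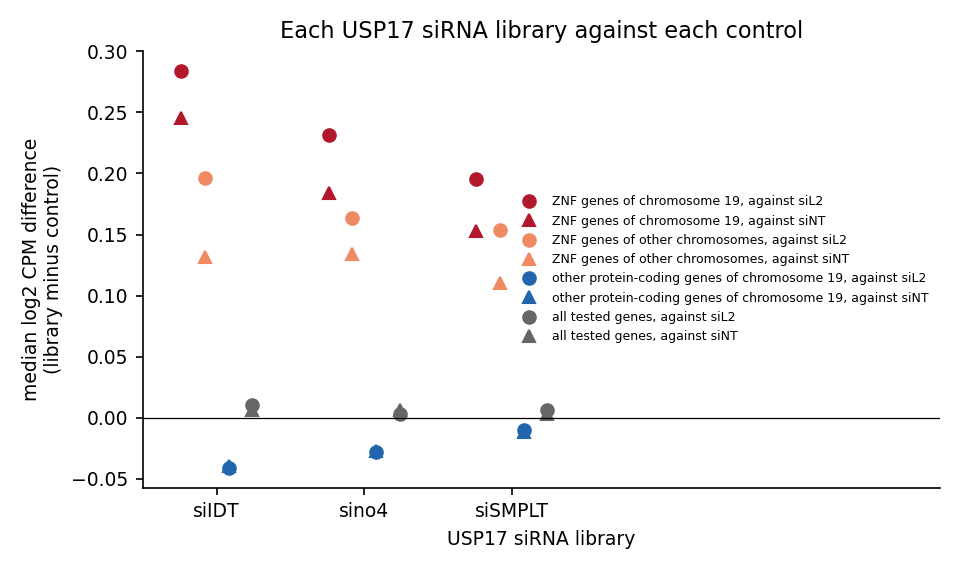
Median log2 CPM difference of each USP17 siRNA library (x axis) from each control, siL2 as circles and siNT as triangles, for chromosome 19 ZNF genes, ZNF genes of other chromosomes, other coding genes of chromosome 19 and all tested genes. The chromosome 19 ZNF medians run from 0.15 to 0.28, and all points of that set lie above 0.

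The cluster in 19q13.41 held the most called members. All 27 of its tested genes but 1 had a log2 fold change above 0, of 29 members in the band, and the median was 0.34. The 6 called genes (22.2% of those tested) were all higher, where 10.5% of all tested genes were called and 4.64% called higher. In 20 genes every USP17 library lay above both controls, as in 23.3% of all tested genes. An unadjusted p under 0.05 was found in 16, all of them higher, and in 14.2% of all tested genes with that direction. The median differences from the mean of the controls were 0.43 in siIDT, 0.35 in sino4 and 0.23 in siSMPLT.

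ZNF701, a KRAB gene with 7 counted fingers, had the largest fold change of the called members. It lies at 52555457 to 52587174 on the plus strand (GRCh38, GENCODE 29) and measured 10.4, 9.73 and 8.66 CPM with USP17 siRNA and 4.49 and 5.44 CPM with control siRNA. Both control values are below every USP17 value, and siIDT is the highest library. The means were 9.60 ± 0.878 CPM with USP17 siRNA (SD, n = 3) and 4.97 ± 0.665 CPM with control siRNA (SD, n = 2), a log2 fold change of 0.95 ± 0.147 (SE; adjusted p 0.0108, edgeR). ZNF480, with 10 fingers, lies nearby at 52297177 to 52325922 on the plus strand and measured 52.2, 51.4 and 47.46 CPM with USP17 siRNA and 34.9 and 34.7 CPM with control siRNA. Its control libraries were nearly equal, and its log2 fold change was 0.53 ± 0.0834 (SE; adjusted p 0.0111, edgeR). Neither call was kept without sino4, where the adjusted p was 0.0665 for ZNF701 and 0.0762 for ZNF480.

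The other called genes of 19q13.41, all of them higher with USP17 siRNA, are ZNF468, ZNF83, ZNF615 and ZNF611. ZNF468 measured 14.5, 14.5 and 13.5 CPM with USP17 siRNA and 9.11 and 10.05 CPM with control siRNA, a log2 fold change of 0.56. ZNF83, a gene in which no KRAB pattern was found in the coding sequence, measured 38.6, 36.0 and 34.1 CPM with USP17 siRNA and 24.5 and 27.7 CPM with control siRNA, a log2 fold change of 0.47. The groups do not overlap in either gene. ZNF615, with 19 fingers, measured 22.2, 20.2 and 20.7 CPM with USP17 siRNA and 13.9 and 16.05 CPM with control siRNA (0.49 on the log2 scale). ZNF611 measured 15.02, 15.2 and 12.9 CPM with USP17 siRNA and 10.01 and 10.5 CPM with control siRNA (0.48). In both genes siL2 is the lowest library. The adjusted p of these 4 genes in edgeR's test was 0.0192, 0.0232, 0.0267 and 0.0379, in the order given.

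The 19p12 cluster, the primate-expanded group that includes ZNF91, had 21 of 33 members tested. Its median was 0.25, with 18 genes above 0, and 3 were called (14.3%, against 10.5% of all tested genes), all higher. ZNF91, known in human cells for binding SVA retrotransposons, carries 31 counted fingers and lies at 23304991 to 23395560 on the minus strand. It measured 56.3, 51.9 and 52.2 CPM with USP17 siRNA and 41.7 and 40.6 CPM with control siRNA, with means of 53.5 ± 2.44 CPM with USP17 siRNA (SD, n = 3) and 41.2 ± 0.787 CPM with control siRNA (SD, n = 2). The fold is small, at 1.299-fold, but the libraries of each group lie close together (log2 fold change 0.38 ± 0.0811 SE, adjusted p 0.0254 in edgeR's test). ZNF737 measured 15.1, 13.29 and 12.8 CPM with USP17 siRNA and 8.79 and 8.29 CPM with control siRNA, a log2 fold change of 0.69 (adjusted p 0.0149, edgeR). ZNF708 measured 26.8, 26.4 and 24.8 CPM with USP17 siRNA and 19.99 and 17.4 CPM with control siRNA (0.48, adjusted p 0.0247, edgeR). ZNF714, the highest of the band at 23.1 TPM, had a log2 fold change of 0.09 that did not pass (adjusted p 0.463, edgeR).

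**Figure D3:**
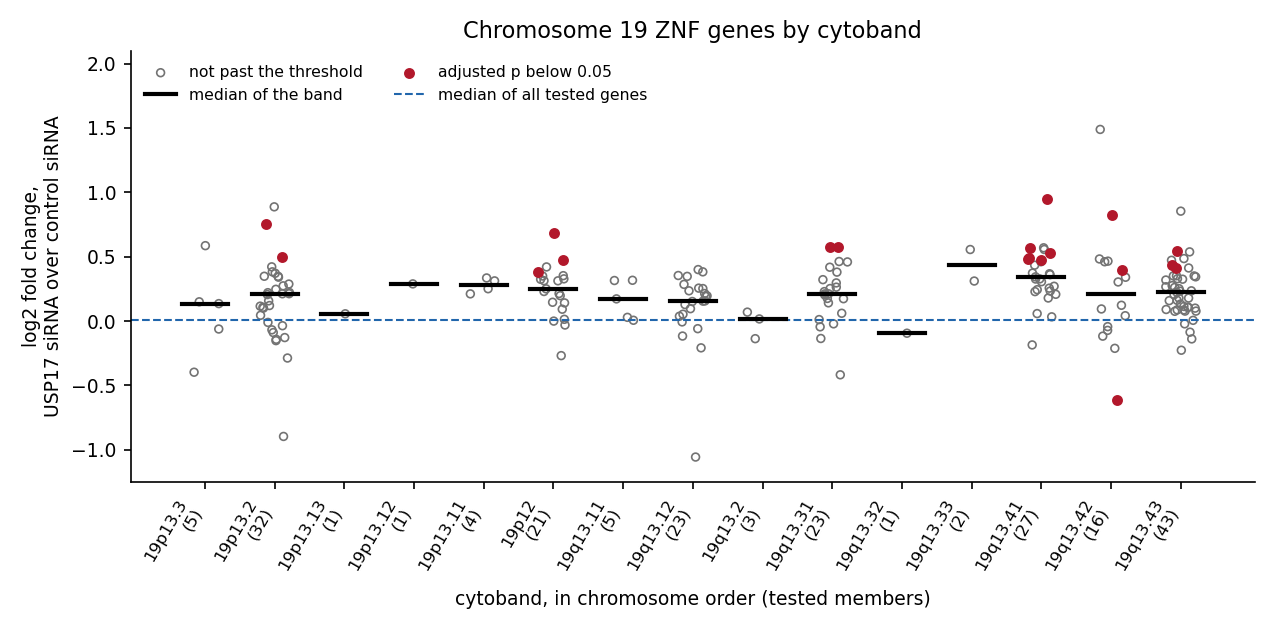
Log2 fold change, USP17 siRNA over control siRNA (y axis), of each tested chromosome 19 ZNF gene by cytoband in chromosome order (x axis, number tested in brackets). Filled points passed an adjusted p of 0.05, black bars are band medians and the dashed line is the median of all tested genes (0.01). Of the 9 bands with at least 5 tested members, 19q13.41 has the highest median (0.34) and 19p13.3 the lowest (0.14).

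The other bands with at least 5 tested members had medians of 0.14 to 0.22. In 19q13.31, where every one of 23 members was tested, the median was 0.21 and 19 were above 0. ZNF180 there measured 17.3, 19.1 and 17.9 CPM with USP17 siRNA and 11.4 and 12.9 CPM with control siRNA, a log2 fold change of 0.57 (adjusted p 0.0178, edgeR). ZNF112 measured 14.4, 13.9 and 12.5 CPM with USP17 siRNA and 9.14 and 9.09 CPM with control siRNA, a log2 fold change of 0.58 (adjusted p 0.0198, edgeR). The groups are separate in both genes, and the controls of ZNF112 are nearly equal.

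At the end of the long arm, 19q13.43 is the largest group, with 43 of 50 members tested, a median of 0.22 and 39 above 0. Its called genes (6.98%, against 10.5% of all tested genes) were ZNF460, ZNF264 and ZNF549, all higher. ZNF460 measured 10.7, 9.57 and 10.2 CPM with USP17 siRNA and 6.77 and 7.19 CPM with control siRNA and ZNF264 measured 25.6, 27.8 and 26.8 CPM with USP17 siRNA and 18.7 and 21.6 CPM with control siRNA. Their log2 fold changes were 0.54 and 0.41, and that of ZNF549 was 0.43, with adjusted p of 0.0271, 0.0383 and 0.0405 in edgeR's test. ZNF274, a KRAB protein known in human cells for bringing SETDB1 to the ends of other ZNF genes, lies in the same band. It was looked up outside the naming rule and measured 17.3, 20.9 and 19.6 CPM with USP17 siRNA and 17.5 and 14.3 CPM with control siRNA. The siL2 value lies above that of siIDT, and the log2 fold change of 0.28 did not pass (adjusted p 0.194, edgeR).

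In 19p13.2, 32 of 39 members were tested, with a median of 0.21 (0.13 without siIDT and 0.13 without siL2) and 23 above 0. Of these 32, 2 were called (6.25%, against 10.5% of all tested genes), both higher. In 19q13.12 the median of 23 tested genes was 0.16 (0.10 without siL2), 18 were above 0 and none was called by edgeR's test. An unadjusted p under 0.05 was found in 5, all higher, and in 14.2% of all tested genes with that direction. ZNF146, in that band, measured 249.8, 256.1 and 257 CPM with USP17 siRNA and 254 and 257 CPM with control siRNA. Its groups overlap and its log2 fold change was -0.01 (adjusted p 0.959, edgeR). In 19q13.11 all 5 tested members of 6 were above 0, with a median of 0.17, and in 19p13.3 3 of 5 were, with a median of 0.14 (0.03 without siL2). ZNF507 in 19q13.11 measured 126, 129 and 119.8 CPM with USP17 siRNA and 112 and 138 CPM with control siRNA, the USP17 values lying between the controls (log2 fold change 0.01). ZNF544 and ZNF428 had log2 fold changes of 0.33 and 0.26 and missed the threshold (adjusted p 0.0776 and 0.103, edgeR). Their groups did not overlap, with USP17 values higher, as in 23.3% of all tested genes. In the bands with fewer tested members, the median was 0.28 for the 4 genes of 19p13.11, 0.02 for the 3 of 19q13.2 and 0.43 for the 2 of 19q13.33. The single genes of 19p13.13, 19p13.12 and 19q13.32 had log2 fold changes of 0.06, 0.29 and -0.09.

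In 19q13.42 the genes went both ways. Of 16 tested, 11 were above 0, with a median of 0.21 (0.14 without sino4 and 0.14 without siNT), and the single called fall of the family lies there. ZNF581 is a short gene with 4 counted fingers and no KRAB pattern found, at 55635459 to 55645622 on the plus strand. It measured 15.9, 16.3 and 17.9 CPM with USP17 siRNA and 23.0 and 28.3 CPM with control siRNA. All USP17 values are below both controls, with means of 16.7 ± 1.03 CPM with USP17 siRNA (SD, n = 3) and 25.6 ± 3.74 CPM with control siRNA (SD, n = 2), and the log2 fold change was -0.62 ± 0.116 (SE; adjusted p 0.0176, edgeR). The annotation places ZNF580 and CCDC106 over it on the same strand, so its count depends on how reads were divided there. The call was not kept without siIDT (adjusted p 0.0715, edgeR) or without sino4 (0.0991).

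A further 4 members passed the threshold and are named after their values were seen. ZNF653 and ZNF700 in 19p13.2 had log2 fold changes of 0.75 and 0.50, and ZNF415 and ZNF765 in 19q13.42 of 0.83 and 0.40. Their adjusted p in edgeR's test was 0.0418, 0.0447, 0.0495 and 0.0423, close to the threshold. ZNF415 lay at 2.02, 1.58 and 1.91 CPM with USP17 siRNA and 0.992 and 1.08 CPM with control siRNA, the lowest level of the called genes. Across all 19 called members the groups did not overlap, and the rises ran from 1.299-fold to 1.93-fold. The test that picked them favours genes with separate groups, so the separation adds nothing to the calls.

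**Figure D4:**
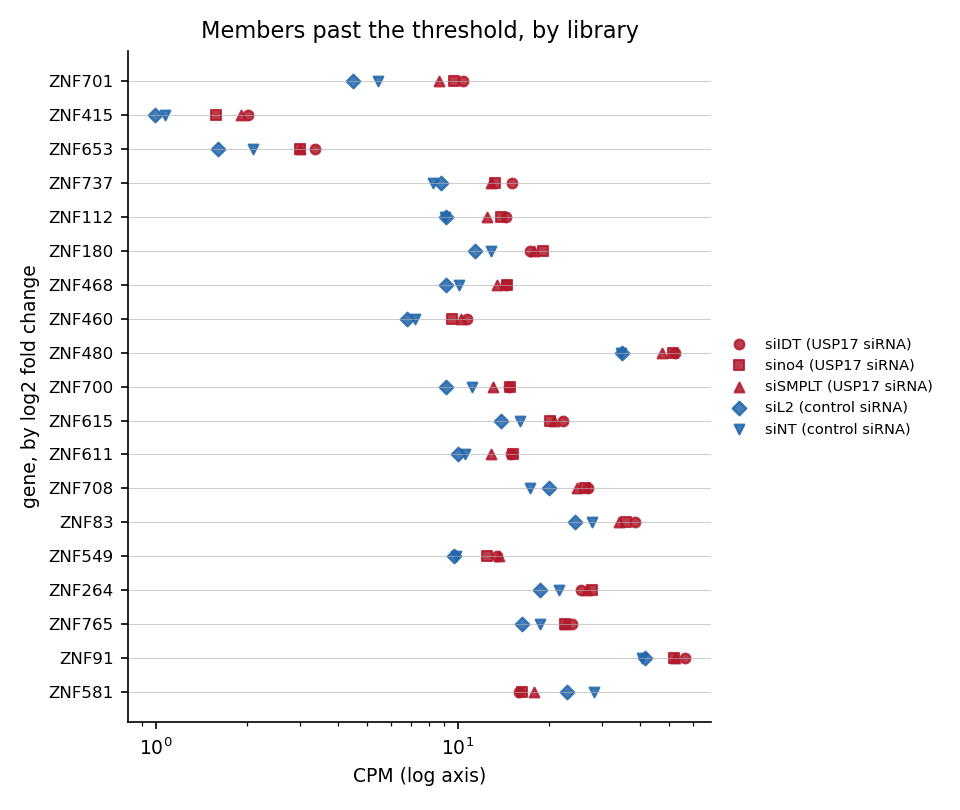
CPM on a log axis in each library for the 19 members past the threshold, ordered by log2 fold change, with USP17 siRNA libraries in red and control siRNA libraries in blue. In the 18 rises all red points lie right of the blue ones, and in ZNF581, at the bottom, they lie left of them. The genes were picked by the test on these same libraries, which favours such separation.

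Larger fold changes occurred in members with few reads. ZNF347 had the highest log2 fold change, 1.49, and ZNF382 the lowest, -1.06, and both are named after their values were seen. Neither passed (adjusted p 0.248 and 0.217, edgeR), and all their libraries lay under 1 CPM. Some members differed between the controls by more than between the groups. ZNF814 measured 2.48, 2.04 and 2.63 CPM with USP17 siRNA and 0.992 and 2.58 CPM with control siRNA, ZNF540 measured 5.41, 3.50 and 3.85 CPM with USP17 siRNA and 5.92 and 3.31 CPM with control siRNA and ZNF850 measured 27.04, 23.6 and 27.7 CPM with USP17 siRNA and 16.8 and 28.99 CPM with control siRNA. Their log2 fold changes of 0.41, -0.12 and 0.19 all changed sign without siL2.

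Members with a KRAB domain made up most of the family. A pattern for the domain was found in the coding sequence of 172 tested members, with a median log2 fold change of 0.24, 149 above 0 and 15 called, all higher (8.72%). In the 35 without it the median was 0.09, with 23 above 0, 3 called higher and 1 lower (11.4%). Of all tested genes 10.5% were called, and the called share was not larger with the pattern. On other chromosomes the medians were 0.18 in 82 genes with the pattern and 0.14 in 128 without. The members without the pattern also had a higher median GC content, 60.7% against 42.2%, and the separate parts of both features were not tested. By the number of fingers the median was 0.12 in 13 members with up to 5, 0.18 in 62 with 6 to 10, 0.23 in 86 with 11 to 15 and 0.26 in 46 with 16 to 36. The called shares in the same order were 15.4%, 6.45%, 11.6% and 6.52%. Median GC content fell along these groups (61.7%, 42.8%, 42.3% and 41.1%), while median transcript length rose from 2240 to 4012.5 bases. The separate parts of these features were not tested.

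**Figure D5:**
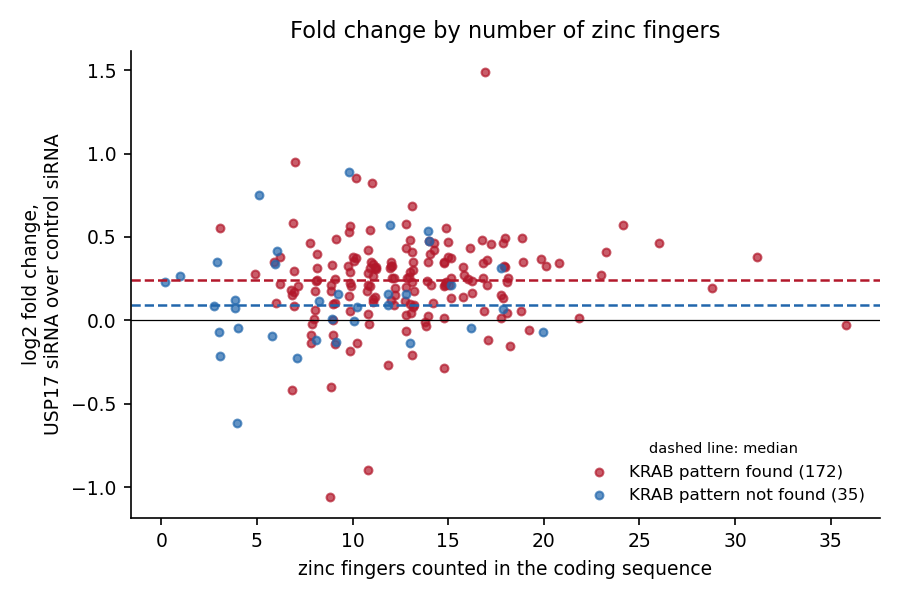
Log2 fold change, USP17 siRNA over control siRNA (y axis), of the 207 tested members by the number of zinc fingers counted in the coding sequence (x axis, points spread sideways for sight). The 172 members with a KRAB pattern have a median of 0.24 and the 35 without it one of 0.09, drawn as dashed lines.

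GC content varied with the fold changes of the family. With all tested coding genes divided into 5 equal groups by GC content, low to high, the medians were 0.04, -0.00, -0.02, -0.05 and -0.04. Members in the same groups had medians of 0.31 (74 genes), 0.21 (79), 0.19 (30), 0.02 (4) and 0.07 (20). In each group the member median was above that of all coding genes. With GC content corrected the member median was 0.23, a correction chosen after the data were seen. In 5 such groups by level in log2 CPM, low to high, member medians were 0.27, 0.23, 0.19, 0.10 and 0.01. The last 2 groups held 3 members each. By transcript length the medians of all coding genes rose from -0.07 to 0.06, and those of members were 0.12, 0.21, 0.25, 0.24 and 0.16. The part of GC content, level or length in the family's rise was not tested.

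Some member sequence is not unique in the annotation, either in related genes or in annotated genes that overlap the member, and the 2 sources were not separated. In the median tested member 1.90% of 50-base stretches occur in another annotated gene. More than 50% were shared in 11 of the 241 members, all of which overlap another annotated gene on their own strand. Of these, ZNF709, ZNF564, ZNF490, ZNF724, ZNF223 and ZNF320 were tested and none was called, and ZNF625, ZNF177, ZNF20, ZNF98 and ZNF763 had too few reads. In ZNF709, which has the highest ratio of the tested members, RSEM assigned 1657 reads where the unique count was 50, whereas in ZNF320 (99.5% shared) the ratio was 0.955. Members with at most 5% shared had a median log2 fold change of 0.21 over 132 genes, and the other 75 had one of 0.26. Called members numbered 9 and 10 in that order, where 10.5% of all tested genes were called. Of the called members, 10 overlap another gene on their own strand, among them ZNF701, ZNF468 and ZNF83, and STAR counts no read that falls in exons of both genes.

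Some promoters of called members resemble each other and most do not. RefSeq had an entry for 210 members. Of those printed above, ZNF701 and ZNF611 were identical at 80.8% of aligned bases, while ZNF91 and ZNF581 matched each other at 49.1% and ZNF701 at 49.6% and 50.3%. No promoter was found for ZNF480, so the pairs of called genes in 19q13.41 cover ZNF701, ZNF468, ZNF83, ZNF615 and ZNF611. Those 10 pairs ran from 48.7% to 81.0% with a median of 76.1%, and the 132 pairs from different bands had a median of 50.1%. In 19q13.41 the pairs among ZNF701, ZNF468, ZNF611 and ZNF83 were at 75.5% or more, and those of ZNF615 at 51.4% or less. ZNF737 and ZNF91, both of 19p12, were at 78.3%, but ZNF112 and ZNF180, both of 19q13.31, were at 49.0%. The highest value across bands was 81.9%, for ZNF765 and ZNF83.

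The ETS core CCGGAAG occurred on either strand in 93 of the 210 member promoters (44.3%), in 37.3% of 193 promoters of ZNF genes elsewhere and in 14.2% of all 15842 promoters of the same length. It is present in ZNF611 and ZNF91 as printed, and in 10 of the 17 promoters found for members called higher. Members with the core had a median log2 fold change of 0.29 over 79 genes, and those without it 0.16 over 103. On other chromosomes ZNF genes with and without it had medians of 0.15 and 0.16, and in other coding genes both medians were -0.02. Other motifs searched on both strands were the box GGGCGG, found in 69.5% of members and 58.5% of all promoters, CCAAT (52.9% and 36.4%), the YY1 core AAGATGGC (6.19% and 3.91%), GCATGCGC of NRF1 (3.33% and 4.26%) and TATAAA (1.90% and 9.63%). A match describes these letters and not a bound site.

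The partners through which KRAB proteins act were examined as a list. Of 20 corepressor and HUSH complex genes, all tested, 2 (10%) were called higher and none lower by edgeR's test. Among all tested genes 10.5% were called and 4.64% called higher. Before adjustment 5 genes of the list (25%) had a p under 0.05, against 28.9% of all tested genes. All 5 were higher, against 14.2% of all tested genes with that direction. The median log2 fold change of the list was 0.08. TRIM28, itself on chromosome 19 at 58544091 to 58550722, measured 404, 409 and 393 CPM with USP17 siRNA and 377 and 379 CPM with control siRNA. Its groups do not overlap, with USP17 values higher, as in 23.3% of all tested genes. Its log2 fold change of 0.09 did not pass (adjusted p 0.389, edgeR). SETDB1 measured 103, 97.8 and 103 CPM with USP17 siRNA and 106.2 and 105.6 CPM with control siRNA (adjusted p 0.584, edgeR). The called genes were CHD3, a chromatin remodeller of the NuRD complex, and TASOR, the scaffold of the HUSH silencing complex. CHD3 measured 351, 389.9 and 378 CPM with USP17 siRNA and 224 and 253 CPM with control siRNA, a log2 fold change of 0.65 ± 0.0817 (SE; adjusted p 0.00537, edgeR). TASOR measured 224, 233 and 211 CPM with USP17 siRNA and 141 and 169 CPM with control siRNA, a log2 fold change of 0.52 ± 0.0921 (SE; adjusted p 0.0149, edgeR). TASOR lost its call without siIDT (adjusted p 0.0595) or without sino4 (0.0878), while CHD3 kept it in every alternative run.

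Which members passed depended on single libraries. Without siIDT 2 members were called (0.98% of those tested, against 2.16% of all genes), and without siSMPLT 10 (4.88%, against 6.44%). Without sino4 none was called by edgeR's test, where 0.803% of all genes were. In that run 42 of 205 tested members had an unadjusted p under 0.05, as had 19.2% of all genes. Without siL2 21 were called (10%, against 14.4%) and without siNT 36 (17.1%, against 15.5%). The count of calls over all genes thus moved with the same libraries. The median log2 fold change over the tested members stayed between 0.19 and 0.25 when any 1 library was left out.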

How the data were processed

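Poly(A)-selected RNA from 5 libraries of COLO 320DM was sequenced after kit-based library preparation, per the labels' protocols. Per the submitters' processing notes, bcl2fastq 2.20, STAR 2.7.1a and RSEM 1.3.2 were used with build GRCh38; neither annotation release nor strand setting is stated there. The authors deposited whole-number read counts per gene in STAR's layout, of which the sense-strand column was used (18.7 to 19.9 times the opposite one), and RSEM's expected counts and TPM. Reads outside the gene counts, multi-mapping ones included (11.0% to 11.6%), made up 22.8% to 24.4% of reads and were left out.

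The groups were compared in R 4.3.3 with edgeR 4.0.16: filterByExpr (minimum count 10, minimum total 15), TMM, quasi-likelihood F test, two-sided, Benjamini-Hochberg adjustment over 16341 genes, threshold 0.05. CPM values are scaled to library size by TMM. The script was checked on simulated data. The 241 members and the lists were chosen with earlier results of these data known. Named genes were up to 14 called members in each direction by smallest p (log2 CPM 0 or more), the highest TPM of each cytoband, the 3 members with the largest difference between controls (log2 CPM 1 or more), called corepressor genes, TRIM28 and SETDB1. Coordinates came from GENCODE 29, cytobands from standard GRCh38 bands rounded to 0.1 Mb. Fingers and the KRAB pattern were counted in the translated coding sequence by text patterns, which miss degenerate copies. Alternatives were DESeq2 1.42.0 (size factors, Wald test), limma-voom (limma 3.58.1), RSEM's expected counts (rounded), unstranded counts, no filter, an adjusted p of 0.10, leaving out each library, and corrections for GC content and length added after the data were seen. Figures were drawn with matplotlib 3.10.9 in Python 3.11.15.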

Additional observations from a re-analysis of the deposited data

How the results depend on the processing

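The median log2 fold change of chromosome 19 ZNF genes stayed between 0.19 and 0.25 under every alternative run, and all 9 bands with at least 5 tested members kept a median above 0. Single libraries moved 4 of these medians by over 1.5 times: 19p13.3 to 0.03 without siL2 (from 0.14), 19p13.2 to 0.13 without siIDT and 0.13 without siL2 (from 0.21), 19q13.42 to 0.14 without sino4 and 0.14 without siNT (from 0.21), and 19q13.12 to 0.10 without siL2 (from 0.16). Members called higher numbered 42 at an adjusted p of 0.10 and 11 without the filter on low counts, in place of 18. Leaving out 1 library gave 0 to 34 higher and 0 to 2 lower. Of the calls, 17 were shared with RSEM counts, 18 with limma-voom and 19 with DESeq2's size factors, and 18 of the 23 of DESeq2's Wald test were shared. Without siL2 or siNT the spread comes from the USP17 libraries and is taken to hold for the single control, and 12 of 21 and 18 of 36 calls were shared.

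For ZNF genes of other chromosomes, 40 were higher and 8 lower at an adjusted p of 0.10 and 13 higher without the filter, and leaving out 1 library gave 0 to 40 higher and 0 to 8 lower. Their median was 0.156 with length corrected, 0.158 with DESeq2's Wald test and 0.153 with unstranded counts, and 0.132 to 0.187 with 1 library left out. Over all genes an adjusted p of 0.10 gave 1460 higher and 1614 lower, and leaving out 1 library 50 to 1384 higher and 80 to 1425 lower. Corepressor genes called higher numbered 1 to 3, and called named genes 1 to 20, with 1 library left out.

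Uncalled genes changed sign for ZNF146 (0.00678 without siIDT, 0.000738 without siNT, lowest -0.0154), ZNF296 (0.0333 without sino4, lowest -0.208), ZNF507 (-0.00169 with DESeq2's Wald test, -0.00176 unstranded, -0.0178 without sino4, -0.137 without siL2, highest 0.164), ZNF540 (0.00565 without sino4, 0.361 without siL2, lowest -0.478), ZNF814 (-0.113 without siL2, highest 1.26) and ZNF850 (-0.15 without siL2, highest 0.641), the lowest and highest being those with 1 library left out. Among called genes, ZNF264, ZNF549 and ZNF611 lost their call without the filter (adjusted p 0.0539, 0.0683 and 0.053, edgeR) and ZNF460 with unstranded counts (0.0529). For changes beyond those that a smaller number of libraries or another threshold brings by construction, the cause was not tested. No paired analysis was possible because the labels carry no replicate numbers and the numbers used here only name libraries. Reads that map to several places limit members with much shared sequence, and depth limits those under 1 CPM.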
